A study of Mus musculus with 44 samples.

Results

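Siglecf, Lat, Lrrc32, Vsig8, Fn1, Il1rl2, Tnfrsf26, Rhob, Grk3 and Rrad are the 10 genes described here. They belong to the 22 genes whose mRNA was called changed the same way in NCoR knockout (NKO) macrophages in all 6 conditions measured. In all, 24940 genes were listed and 13407 tested. The 10 lie outside lipid metabolism but are not all such genes among the 22. The rest of the 22 holds Ncor1 itself, lipid genes such as Plin2 and Pltp, and others outside lipid metabolism, such as Mmp9, Ccl6, Ctsl and Ccr1. A gene was called when it differed more than 1.5-fold from wild type (WT) with an adjusted p under 0.05. The genes were thus chosen by their NKO against WT log2 fold changes and p-values, which are given below as a description with no test, whereas the responses to ligands and all values from the other 3 count tables were not used to choose them. The first 8 genes listed were higher in NKO, and Grk3 and Rrad were lower.

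The cells were BMDMs, macrophages grown from precursors of mouse bone marrow in M-CSF, and their mRNA was measured by RNA-seq. The study asked how the corepressor NCoR, which carries the histone deacetylase HDAC3, takes part in responses to extracellular signals. The 44 libraries formed 22 groups of 2, in 4 count tables, with 8323493 to 16783155 counts in genes per library. Nothing in the labels says whether the 2 libraries of a group came from separate mice, so p-values measure only the spread between these libraries.

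WT cells of the NCoR table carried NCoR flox/flox alleles without Cre, and NKO cells carried the same alleles with LysMCre, a Cre driven from the Lyz2 locus and active in myeloid cells. The mice were C57BL/6, aged 8 to 12 weeks, per the study's methods. The methods for BMDMs state that cells were kept in low serum for 12 h before the ligand. Both genotypes received vehicle (Veh), IL4, IFNb, PolyIC or KLA for 6 h, or RANKL for 12 h. KLA is a lipid A that acts through TLR4, PolyIC mimics double-stranded RNA, and RANKL drives osteoclast formation. The column names of the RANKL libraries call the cells osteoclasts. The study's osteoclast culture, described for ChIP-seq, has no low-serum step, so whether the RANKL libraries had it is unclear. In the second table, wild type BMDMs received vehicle, KLA, or KLA plus RGFP966, which inhibits HDAC3. The third held Pgc1b flox/flox BMDMs without Cre and with LysMCre, under vehicle or KLA. The fourth held wild type BMDMs given DMSO with vehicle, DMSO with KLA, or KLA plus TBK1i, which blocks the kinase TBK1. The labels give 6 h for all groups of these 3 tables, and per the study's methods the inhibitors were added earlier, at the start of the 12 h in low serum.

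NCoR has no DNA-binding domain of its own. It is brought to chromatin by nuclear receptors and other factors and is best known for holding target genes silent through HDAC3, most of all genes of cholesterol and fatty acid metabolism in macrophages. The 10 genes described here have other roles. Siglecf encodes a sialic acid-binding receptor with inhibitory motifs that marks mouse eosinophils and alveolar macrophages. Il1rl2 encodes the receptor chain for the IL36 cytokines, Tnfrsf26 a receptor of the TNF receptor family, and Vsig8 a surface protein of the immunoglobulin family. Lat is a membrane adaptor known from T cell receptor signalling, and Lrrc32 (GARP) holds latent TGF-beta at the cell surface. Fn1 encodes fibronectin of the extracellular matrix, and Rhob a small GTPase of endosomes. Grk3 is a kinase that phosphorylates active G protein-coupled receptors, and Rrad is a small GTPase of the RGK family.

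Promoter sequences from RefSeq (GRCm38.p6, the same coordinates as mm10) were found for 5 of the 10 genes: Il1rl2, Lat, Rhob, Siglecf and Vsig8, the last with 2 start sites. Each runs from 250 bases before to 50 bases after the start site. The 3 below are shown because Siglecf and Rhob had the largest increases with RGFP966 among the genes with a promoter, whereas Lat did not move with it. They are written 5′ to 3′ along the gene's strand, and capitals mark a match to GGAAGT, a short form of the PU.1 site.
Siglecf (chr7:43351091-43351390, plus strand): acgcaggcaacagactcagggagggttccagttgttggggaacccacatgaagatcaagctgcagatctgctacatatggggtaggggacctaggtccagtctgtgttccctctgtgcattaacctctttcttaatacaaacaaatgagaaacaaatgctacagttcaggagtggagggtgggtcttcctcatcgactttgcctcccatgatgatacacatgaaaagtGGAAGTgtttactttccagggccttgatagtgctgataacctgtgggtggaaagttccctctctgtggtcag
Rhob (chr12:8499960-8500259, minus strand): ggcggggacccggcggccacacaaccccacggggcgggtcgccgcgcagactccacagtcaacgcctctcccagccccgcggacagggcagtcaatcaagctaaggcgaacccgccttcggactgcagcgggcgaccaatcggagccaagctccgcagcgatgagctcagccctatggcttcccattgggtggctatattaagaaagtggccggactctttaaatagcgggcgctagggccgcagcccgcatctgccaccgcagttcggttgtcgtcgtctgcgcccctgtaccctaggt
Lat (chr7:126369519-126369818, minus strand): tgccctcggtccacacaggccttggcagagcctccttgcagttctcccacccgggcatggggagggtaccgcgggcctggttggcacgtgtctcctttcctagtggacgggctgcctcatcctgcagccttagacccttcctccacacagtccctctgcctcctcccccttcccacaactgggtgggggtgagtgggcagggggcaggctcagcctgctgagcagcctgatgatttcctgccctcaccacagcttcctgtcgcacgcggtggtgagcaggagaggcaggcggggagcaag
6 letter patterns were searched on both strands: AGGTCA (the nuclear receptor half-site), DR4 (AGGTCA, 4 free bases and AGGTCA again, bound by LXR with RXR), TGANTCA (AP-1), an NFkB form (GGGA, 4 free bases, CC), GGAAGT (PU.1) and an ISRE form (GAAA, 2 free bases, GAAA). Siglecf held 1 match, GGAAGT starting 22 bases before the start site. Vsig8 held 4 matches over its 2 promoters, 3 of GGAAGT and 1 of the NFkB pattern, and the promoters of Il1rl2, Lat and Rhob held none of the patterns. Of the 32851 mouse promoters of the same length in the table, 23.8% held GGAAGT, 20.7% the NFkB pattern, 16.3% AGGTCA, 7.81% the AP-1 pattern, 3.44% the ISRE pattern and 0.0152% DR4. GC content was 65.7% for Lat, 65.3% for Rhob and 48.3% for Siglecf, beside a median of 52.7% over all promoters.

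The genes lie on 5 chromosomes. Chromosome 7 holds 4 of them (7.73% of all tested genes lie there): Siglecf (mm10, 43351341 to 43359470), Lrrc32 (98494222 to 98501830), Lat (126363828 to 126369568) and Tnfrsf26 (143607685 to 143627845). Chromosome 1 holds Il1rl2 (40324589 to 40367553), Fn1 (71585473 to 71653234) and Vsig8 (172555938 to 172563717). Rhob is on chromosome 12 (8497661 to 8500009), Grk3 on chromosome 5 (112910478 to 113015538) and Rrad on chromosome 8 (104628066 to 104631321). Counts are of reads in the exons of these genes. In the GENCODE M21 annotation, exons of Fn1, Tnfrsf26 and Rrad overlap an antisense gene. Reads were counted by strand according to the study's methods, which would keep such a pair apart. The antisense gene at Tnfrsf26, E230032D23Rik, had 36 counts or fewer in each library of the NCoR table, and the one at Fn1, Apol7d, had at most 1. Tnfrsf26 also has close neighbours of the same family, Tnfrsf22 and Tnfrsf23, between which reads could be split.

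Ncor1 itself was lower in NKO, with 162 and 169 CPM (gene counts scaled to a common library size by TMM) in the WT_Veh libraries and 56.4 and 57.6 in the NKO_Veh libraries, and its log2 fold change lay between -1.78 and -1.41 over the 6 conditions. All 9 macrophage markers were present, with a summed 15877 to 24172 CPM in WT and 12026 to 21301 CPM in NKO. Their sum was lower in both NKO libraries in each of the 6 conditions, with 17700 and 18200 CPM in WT_Veh against 12000 and 12300 CPM in NKO_Veh. Lyz2, the locus that carries the Cre, is 1 of these markers. It had 9288 and 9129 CPM in WT_Veh against 4581 and 4626 CPM in NKO_Veh. With RANKL the marker sum was 24200 and 23800 CPM in WT and 16900 and 21300 CPM in NKO. Lyz2 alone had 19372.8 and 19094 CPM in WT_RANKL and 11393.5 and 15339.9 CPM in NKO_RANKL. Much of the sum was thus Lyz2, and its lower value in NKO does not show that the other markers fell. The sum without Lyz2 was not computed. Date stamps in the library names were the same for vehicle, IL4, IFNb and PolyIC, 536 days earlier for RANKL and 115 days earlier for WT_KLA, and NKO_KLA was stamped 1401 days before WT_KLA, so at KLA genotype and date cannot be told apart. The 2 NKO_KLA libraries had no Xist count and at least 578 counts of Y-linked genes, and the other 22 libraries of the table had at least 5206 Xist counts and no Y-linked count, so the sex of the mice cannot be told apart from genotype there either. In bulk RNA, fewer cells that make a transcript and less of it per cell cannot be told apart.

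Markers of the cells in which some of these genes are best known were also measured. Of 10 T cell markers, Cd3d, Cd3g and Cd2 had at most 3 counts in every NCoR-table library, and the sum over the list was 82.5 and 67.1 CPM in WT_Veh and 52.6 and 49.7 CPM in NKO_Veh, but 22.4 and 22.2 CPM in WT_KLA and 59.7 and 70.4 CPM in NKO_KLA. The T cell sum was also higher in both NKO libraries with RANKL, and lower in both with IL4, IFNb and PolyIC. Of 7 eosinophil markers, Il5ra and Ear1 had at most 3 counts, and the sum was 11 and 12 CPM in WT_Veh and 7.75 and 7.93 CPM in NKO_Veh. It was 43.4 and 47.4 CPM in NKO_RANKL against 17.2 and 18.5 CPM in WT_RANKL. The eosinophil sum was also higher in both NKO libraries with IFNb and PolyIC, and the genotypes overlapped with IL4 and KLA. Of 7 alveolar macrophage markers, Krt79 had at most 3 counts, and the sum was 300 and 304 CPM in NKO_Veh against 242 and 215 CPM in WT_Veh. The alveolar macrophage sum was higher in both NKO libraries in every condition but RANKL, where the genotypes overlapped. Of 6 keratinocyte markers 5 had at most 3 counts in WT and in NKO libraries, as did Mcpt4, Cma1 and Tpsb2 of the 7 mast cell markers. The sum of 8 osteoclast markers, which include Mmp9, was 2160 and 2130 CPM in NKO_Veh against 1120 and 958 CPM in WT_Veh, and was higher in NKO in all 6 conditions. The sum of 8 neutrophil markers was 1300 to 1830 CPM in the RANKL libraries and 13.5 CPM or lower in all others of the NCoR table. Of 7 platelet and megakaryocyte markers, all had more than 3 counts in some WT and some NKO libraries. Their sum was 45.9 and 43.3 CPM in WT_KLA against 255 and 262 CPM in NKO_KLA, and 580 and 597 CPM in WT_RANKL against 1300 and 1320 CPM in NKO_RANKL, whereas under vehicle it was 61 and 64.1 CPM in WT against 53.1 and 50.5 CPM in NKO. The part of these cells in the genes' values was not tested.

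Among the surface receptors, Siglecf differed most between genotypes in 4 of the 6 conditions, while Tnfrsf26 did at KLA and Il1rl2 (1.32) with RANKL. It had 1.86 and 2.26 CPM (27 and 33 counts) in the WT_Veh libraries and 14.6 and 15.3 CPM (204 and 269 counts) in the NKO_Veh libraries. Over the 12 WT libraries it stayed between 1.03 and 3.11 CPM, and over the 12 NKO libraries between 4.88 and 15.5 CPM, so the genotypes did not overlap in any condition or over the whole table. Its log2 fold change was 2.86 ± 0.20 (SE, n = 2 and 2) under vehicle, 3.25 with IL4, 3.23 with IFNb, 2.64 with PolyIC, 1.83 with KLA and 1.16 with RANKL. The smallest difference was thus with RANKL, where NKO_RANKL held 4.88 and 6.07 CPM.

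Vsig8, like Siglecf, differed least with RANKL. It had 2.20 and 2.53 CPM in WT_Veh and 8.97 and 10.2 CPM in NKO_Veh, a log2 fold change of 2.02 ± 0.21 (SE). It was 1.57 to 1.69 CPM in WT_IL4 and 7.36 to 7.39 CPM in NKO_IL4, and 1.31 to 1.46 CPM in WT_RANKL and 1.90 to 3.95 CPM in NKO_RANKL. The RANKL libraries of each genotype were its lowest, and the log2 fold change there was 1.05. Without NKO_RANKL replicate 2 that value was 0.45 and the call was lost, and it was also lost without WT_RANKL replicate 1 (0.97, adjusted p = 0.0548, edgeR).

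Il1rl2, the IL36 receptor, was at 2.06 and 2.05 CPM in WT_Veh and 6.17 and 6.22 CPM in NKO_Veh, a log2 fold change of 1.59. PolyIC left 4 and 8 counts in the WT libraries and 33 and 35 counts in the NKO libraries (0.476 and 0.962 CPM against 3.48 and 3.63 CPM), the largest difference of this gene at 2.29. RANKL gave 5.89 and 6.56 CPM in WT and 16.5 and 14.4 CPM in NKO. At KLA the libraries held 11 and 6 counts in WT and 32 and 35 counts in NKO, and the call was lost without WT_KLA replicate 2 (0.75) or without NKO_KLA replicate 2 (0.97).

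Tnfrsf26 had 13.3 and 11.5 CPM in WT_Veh and 24.05 and 24.98 CPM in NKO_Veh, a log2 fold change of 0.98. With IL4 it was 28.9 and 23.1 CPM in WT and 43.6 and 44.2 CPM in NKO, where its difference was smallest (0.75). With KLA only 7 and 2 counts remained in the WT libraries against 46 and 45 in the NKO libraries, and the log2 fold change of 2.45 rests on those few counts. The genotypes did not overlap in any of the conditions.

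Lat, the adaptor, was 2.55 and 2.81 CPM in WT_Veh and 7.97 and 8.67 CPM in NKO_Veh, a log2 fold change of 1.64 ± 0.22 (SE). Its calls were the ones most often lost when 1 library was left out. With RANKL it held 4.51 and 5.79 CPM in WT and 7.86 and 7.80 CPM in NKO, a log2 fold change of 0.61 that just passed the fold threshold of 0.585. That call was lost in DESeq2 (adjusted p = 0.0568), without WT_RANKL replicate 1 (0.43) and without NKO_RANKL replicate 1 (0.60) or 2 (0.61). Its calls at IL4 were lost without WT_IL4 replicate 2 (0.78) or NKO_IL4 replicate 1 (0.61), at PolyIC without NKO_PolyIC replicate 2 (1.00), and at KLA without WT_KLA replicate 1 (0.75) or NKO_KLA replicate 2 (0.89).

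Lrrc32, which anchors latent TGF-beta, was 7.91 and 5.20 CPM in WT_Veh and 21.6 and 21.1 CPM in NKO_Veh, a log2 fold change of 1.70. Its level rose in both genotypes with IL4, to 30.7 and 33.6 CPM in WT and 73.5 and 70.1 CPM in NKO, and with PolyIC, to 38.5 and 46.5 CPM in WT and 83.6 and 109 CPM in NKO. With RANKL the libraries held 8.31 and 8.37 CPM in WT and 12.2 and 13.2 CPM in NKO. The difference there was 0.60, the value nearest to the fold threshold among all those of the 10 genes, and its call was lost without NKO_RANKL replicate 2 (0.55). Lrrc32 is also known from platelets, whose marker sum was higher in NKO with RANKL, KLA and PolyIC, lower in NKO under vehicle and IL4, and overlapping with IFNb.

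Fn1 showed the widest range. The WT_Veh libraries held 116 and 97.8 CPM and the NKO_Veh libraries 342 and 331 CPM, a log2 fold change of 1.65. IL4 libraries were the highest of each genotype, at 208 and 234 CPM in WT and 787 and 769 CPM in NKO. At KLA the WT libraries held 42 and 38 counts (6.88 and 6.33 CPM) and the NKO libraries 2145 and 1887 counts (184 and 180 CPM), a log2 fold change of 4.78. With RANKL the NKO libraries differed between themselves, with 57.7 and 118 CPM against 33.4 and 36.4 CPM in WT, and with these 4 libraries alone in the fit the call was lost (adjusted p = 0.212, edgeR). The summed CPM of 7 fibroblast markers was 68.4 and 69.9 in NKO_Veh against 102 and 92.2 in WT_Veh, 15 and 12.5 in NKO_KLA against 22.9 and 16.5 in WT_KLA, and 246 and 348 in NKO_RANKL against 229 and 202 in WT_RANKL. The fibroblast sum was thus lower in NKO under vehicle and KLA and higher with RANKL, but at KLA its members did not move together. Col1a1 had 0 and 0 counts in WT_KLA and 34 and 35 in NKO_KLA, Col1a2 0 and 0 against 24 and 7, and Col3a1 1 and 0 against 35 and 27, so these collagens were higher in NKO_KLA, as Fn1 was, while the other members summed to less.

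Rhob had the highest level per length of the 10 genes, 65.9 CPM per kb of transcript in WT_Veh, where the others ranged from 0.507 (Il1rl2) to 12.8 (Fn1). It had 157 and 152 CPM in WT_Veh and 288 and 293 CPM in NKO_Veh, a log2 fold change of 0.91. Its range over the 6 conditions was 0.76 (IL4) to 1.27 (RANKL), and the genotypes did not overlap in any of them.

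Grk3 and Rrad were the pair of genes lower in NKO. Grk3 had 10.2 and 14.4 CPM in WT_Veh and 6.96 and 7.19 CPM in NKO_Veh, a log2 fold change of -0.80. Without WT_Veh replicate 2 that value was -0.53 and the call was lost. At KLA it had 53.7 and 68.8 CPM in WT and 27.9 and 24.1 CPM in NKO (-1.23), and with PolyIC 109 and 120 CPM in WT and 57.4 and 62.1 CPM in NKO. Rrad had 8.05 and 11.4 CPM in WT_Veh and 5.24 and 5.30 CPM in NKO_Veh, and its log2 fold change ranged from -1.20 with RANKL to -0.76 with PolyIC. Under vehicle both changed by less than any of the 8 higher genes, whereas with RANKL Grk3 (-1.23) and Rrad changed by more than Siglecf, Vsig8, Tnfrsf26, Lat and Lrrc32. The WT and NKO libraries of both genes stayed apart within every condition.

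**Figure D1:**
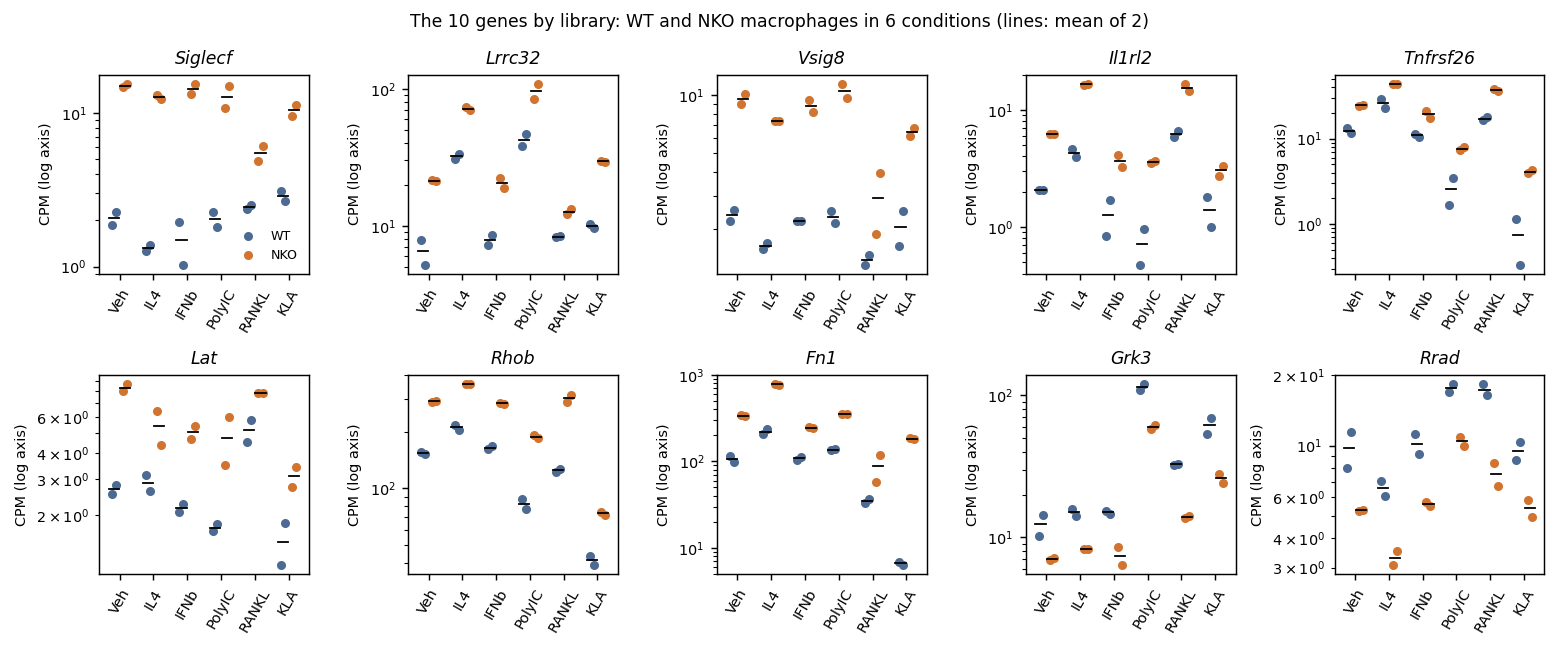
TMM-scaled CPM of the 10 genes on a log axis (panels with their own ranges), with 2 libraries of WT (blue) and NKO (orange) per condition and a line at their mean. The points of the 2 genotypes do not overlap within any condition, which largely follows from the choice of the genes by these contrasts. Siglecf stays between 1.03 and 3.11 CPM in all 12 WT libraries.

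Each of the 10 genes was called in each condition because the choice required it. That the genotypes stayed apart within a condition, as given above, largely follows from the choice too. The share of all genes without such overlap was not computed. The share of all tested genes called the same way in all 6 conditions was 0.164%, with 0.134% higher and 0.0298% lower. The share called higher and lower was 2.4% and 3.8% under vehicle, 1.9% and 2.33% with IL4, 1.86% and 1.94% with IFNb, 3.01% and 2.92% with PolyIC, 6.21% and 6.99% with RANKL, and 21% and 19% with KLA. In the 4 conditions of 1 date stamp, 136 genes (1.01%) were called the same way, among them the 10 genes. Just outside the choice lay Klf9 (0.58 with RANKL), Scd1 (0.58 with KLA) and Dnmt3aos (0.56 with RANKL), which were called in the other 5 conditions. The median log2 fold change of the 8 higher genes was 1.64 under vehicle, 1.49 with IL4, 1.30 with IFNb, 1.50 with PolyIC, 1.60 with KLA and 1.14 with RANKL, beside medians over all genes between -0.01 and 0.07.

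Responses to the ligands were tested against vehicle of the same genotype, a contrast that the choice did not use but that shares its libraries. In WT cells the 10 genes did not respond as 1 group. IL4 raised 4 of the 10, beside 6.63% of all genes called higher and 6.46% called lower. These were Lrrc32 (2.29 ± 0.15 on the log2 scale, adjusted p = 2.44e-16, edgeR's quasi-likelihood test, adjusted by Benjamini-Hochberg), Tnfrsf26 (1.07 ± 0.12, adjusted p = 1.03e-10), Il1rl2 (1.06 ± 0.25, adjusted p = 0.00051) and Fn1 (1.05 ± 0.19, adjusted p = 0.000811). Lrrc32 rose from 5.20 to 7.91 CPM in WT_Veh to 30.7 to 33.6 CPM in WT_IL4, with no overlap. Lower than vehicle with an unadjusted p under 0.05 was 1 gene, Rrad (-0.57), which was below the fold threshold and was called without WT_Veh replicate 1 (-0.80) or WT_IL4 replicate 1 (-0.68).

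IFNb called 0 of the 10 in WT cells by edgeR and by DESeq2, beside 4.09% of all genes called higher and 2.37% lower. An unadjusted p under 0.05 (edgeR) was reached by 1 gene upward, Grk3 (0.28), and by 1 downward, Il1rl2 (-0.72). Leaving out 1 library changed the count of calls. Il1rl2 was called without WT_IFNb replicate 2 (-1.28), and Lrrc32 (0.26) without WT_Veh replicate 1 (0.59). NKO cells had 2 genes called lower with IFNb, Il1rl2 (-0.74) and Lat (-0.73), beside 5.65% of all genes called higher and 2.73% lower, and the call of Il1rl2 was lost without NKO_IFNb replicate 2 (-0.60), that of Lat without NKO_Veh replicate 2 (-0.66) or NKO_IFNb replicate 1 (-0.62).

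PolyIC called 3 of the 10 higher and 3 lower in WT cells, beside 22.2% and 25% of all genes. Grk3, the kinase, rose 3.21 ± 0.11 (adjusted p = 5.03e-32, edgeR), from 10.2 and 14.4 to 109 and 120 CPM. Lrrc32 rose 2.69 and Rrad rose 0.86, from 8.05 and 11.4 to 17.02 and 18.27 CPM. Tnfrsf26 fell by 2.27, to 1.67 and 3.49 CPM, and Rhob fell by 0.91, to 87.3 and 77.3 CPM. Il1rl2 fell by 1.51, a call that was lost without WT_PolyIC replicate 1 (-1.09).

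RANKL called 4 higher and 2 lower, beside 24.1% and 19.8% of all genes. The date stamp of the RANKL samples is 536 days earlier than that of vehicle, and their column names call the cells osteoclasts. The neutrophil marker sum was 1430 and 1300 CPM in WT_RANKL against 7.98 and 3.56 CPM in WT_Veh. Ligand, time, date and a possible difference in culture thus cannot be told apart. Il1rl2 (1.59 ± 0.23, adjusted p = 1.46e-08, edgeR), Grk3 (1.40), Lat (0.94) and Rrad (0.84) were higher, and Fn1 (-1.62) and Vsig8 (-0.77) were lower. The call of Vsig8 was lost without WT_Veh replicate 2 (-0.67) and without WT_RANKL replicate 1 (-0.69) or 2 (-0.85). Lrrc32 (0.35) was called without WT_Veh replicate 1 (0.68).

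In NKO cells IL4 called 4 higher and 2 lower (6.71% and 5.42% of all genes), PolyIC 3 and 4 (21% and 22.1%), RANKL 3 and 4 (25.3% and 20%) and KLA 1 and 5 (28.4% and 32.8%). For RANKL the same limits hold as in WT, and NKO_KLA differs from NKO_Veh in date stamp and in sex. The values of both genotypes stand side by side in the plot of ligand responses, and since the NKO against WT contrasts chose the genes, no test of their difference is given. Some of the NKO calls rest on 1 library. Lat was lower with IL4 (-0.62), but not called without NKO_Veh replicate 2 (-0.55) or NKO_IL4 replicate 2 (-0.38), and lower with PolyIC (-0.81), but not called without NKO_PolyIC replicate 1 (-0.47). Rrad with IL4 (-0.67) was not called without NKO_Veh replicate 2 (-0.66) or NKO_IL4 replicate 1 (-0.57), and Tnfrsf26 with RANKL (0.59) not without NKO_Veh replicate 1 (0.56) or NKO_RANKL replicate 1 (0.55).

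The genes also had different values in the 2 genotypes. Siglecf had a log2 fold change of 0.24 with RANKL in WT, not called, and fell by 1.46 in NKO, from 14.6 and 15.3 to 4.88 and 6.07 CPM. Fn1 fell by 4.02 with KLA in WT and by 0.89 in NKO. The NKO_KLA libraries differ from NKO_Veh in date stamp and in sex, so KLA, date and sex cannot be told apart there. In WT, KLA and date cannot be told apart, and the limits given for RANKL hold for Siglecf in both genotypes.

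**Figure D2:**
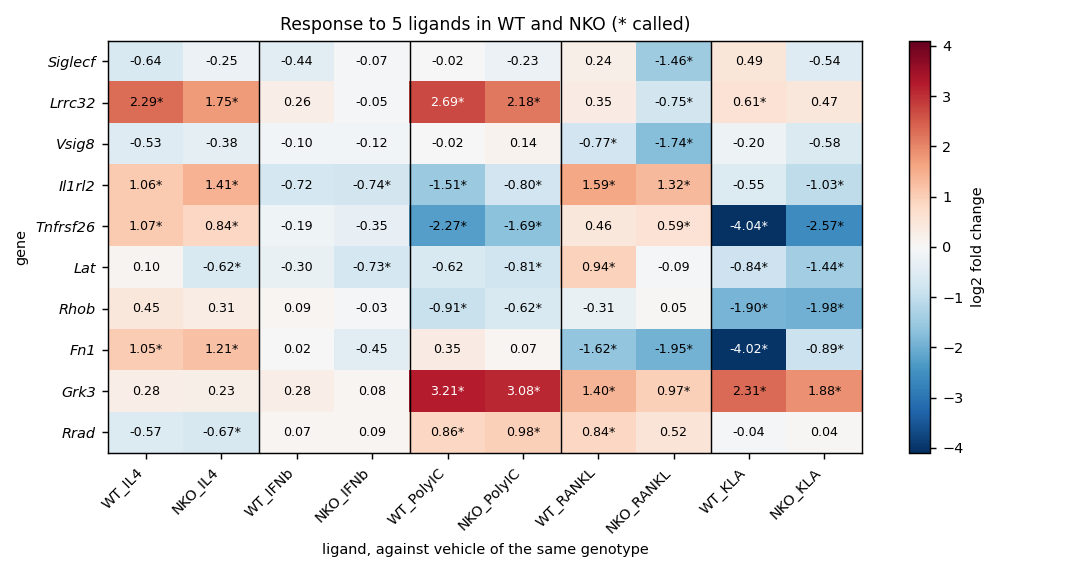
Log2 fold changes of the 10 genes (rows) to 5 ligands against vehicle of the same genotype (columns, WT and NKO side by side), with an asterisk where called. Grk3 and Lrrc32 carry the largest rises, both with PolyIC, and Tnfrsf26 (-4.04) and Fn1 (-4.02) the largest falls, both in WT_KLA.

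KLA was measured in control cells of all 4 tables. Those of the Pgc1b table had at most 1 Xist count and at least 1570 Y-linked counts. The control libraries of the other 3 tables had at least 5206 Xist counts and at most 1 Y-linked count, so sex differs between the tables too. In the NCoR table it called 2 higher and 4 lower in WT cells, beside 25.4% and 32.3% of all genes, with libraries of different stamps for KLA and vehicle. The counts were 1 higher and 5 lower in the RGFP966 table (27.9% and 32.2%), 3 and 2 in the Pgc1b table (22.8% and 25.7%), and 1 and 1 in the TBK1i table (29.6% and 29.3%). Tnfrsf26 fell in all 4 tables, by 4.04, 3.10, 3.87 and 3.33 in that order, and Grk3 rose in all 4, by 2.31, 1.59, 1.47 and 2.09. In the RGFP966 table, for example, Tnfrsf26 went from 12.3 and 12.0 CPM to 1.82 and 1.07 CPM and Grk3 from 16.97 and 19.43 CPM to 54.1 and 55.6 CPM.

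Fn1 and Rhob did not behave alike across these tables. Fn1 fell from 116 and 97.8 to 6.88 and 6.33 CPM in the NCoR table, whereas it was 7.92 and 7.30 and then 12.9 and 9.64 CPM in the RGFP966 table, 25.1 and 23.3 and then 39.5 and 36.1 CPM in the Pgc1b table (called higher, 0.65), and 121 and 115 and then 140 and 134 CPM in the TBK1i table. Its call in the Pgc1b table was lost without Pgc1b_flox_KLA replicate 1 (0.58). In the RGFP966 table (0.55) it was called higher in DESeq2 (0.59) and without Veh replicate 1 (0.62) or KLA replicate 2 (0.77). Rhob fell by 1.90 in the NCoR table and by 1.92 in the RGFP966 table and was not called in the other 2 (0.12 and -0.31). Lat was called lower in the NCoR table (-0.84), with an adjusted p = 0.049 (edgeR), and that call was lost in DESeq2 (-0.78), without WT_Veh replicate 1 (-0.91) or 2 (-0.77), without WT_KLA replicate 1 (-0.55) and under 3 other settings. Lrrc32 was called higher there (0.61), a call lost without WT_Veh replicate 2 (0.33), without WT_KLA replicate 1 (0.56) and with a filter on a mean of 5 CPM (0.55). In the RGFP966 table the lower call of Lat was lost in DESeq2 (-0.62) and without Veh replicate 1 (-0.51) or KLA replicate 1 (-0.34). That of Il1rl2 was lost there without Veh replicate 2 (-0.79) or KLA replicate 1 (-0.88).

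RGFP966 was added to KLA in libraries that took no part in the choice. With the inhibitor, 7 of the 10 genes were higher than with KLA alone and 0 lower by edgeR, beside 15.8% of all 12196 tested genes called higher and 9.54% called lower. The genes that rose were Rhob, Siglecf, Tnfrsf26, Fn1, Il1rl2, Vsig8 and Lrrc32. All 7 were among the 8 genes that were higher in NKO. Lat, the other of those 8, and Grk3 and Rrad were not called, and Grk3 was the 1 gene that was lower with an unadjusted p under 0.05. DESeq2 called 7 too. The median log2 fold change over the 8 genes was 2.90, beside 0.03 over all genes.

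Rhob had 146 and 136 CPM with vehicle, 36.1 and 38.6 CPM with KLA and 409 and 362 CPM with KLA and RGFP966, a log2 fold change of 3.37 ± 0.073 (SE, adjusted p = 1.03e-54, edgeR) against KLA alone. Siglecf had 3.56 and 2.98 CPM with vehicle, 2.77 and 3.87 CPM with KLA and 31.9 and 31.4 CPM with the inhibitor, an increase of 3.23 ± 0.17 (adjusted p = 1.79e-29). Both genes were thus also higher with the inhibitor and KLA than in any vehicle library of that table.

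Tnfrsf26 went from 19 and 13 counts with KLA (1.82 and 1.07 CPM) to 180 and 177 counts with the inhibitor (13.3 CPM in both libraries), beside 12.3 and 12.0 CPM with vehicle, an increase of 3.22 ± 0.23 (adjusted p = 3.81e-21, edgeR). Fn1 went from 12.9 and 9.64 to 103 and 81.1 CPM, an increase of 3.04 ± 0.11 (adjusted p = 1.21e-33). The fibroblast marker sum was 22.4 and 22.9 CPM with KLA and 33.8 and 27.5 CPM with the inhibitor, higher in both libraries, and its part in Fn1 was not tested. Of its 7 markers, 5 had more than 3 counts with KLA and 3 with the inhibitor.

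Il1rl2 went from 9 and 13 counts (0.86 and 1.07 CPM) to 97 and 81 counts (7.15 and 6.08 CPM), an increase of 2.76 ± 0.32 (adjusted p = 1.12e-11, edgeR). Vsig8 went from 4.21 and 3.96 to 18.2 and 17.6 CPM, an increase of 2.14 ± 0.18 (adjusted p = 4.98e-18). Lrrc32 went from 13.8 and 14.2 to 35.6 and 30.3 CPM, an increase of 1.24 ± 0.12 (adjusted p = 7.39e-15). In these 7 genes, which are the called ones, libraries with the inhibitor did not overlap those with KLA alone. Those of Grk3, which was not called, did not overlap either. The share of all genes without overlap was not computed. The eosinophil marker sum was 34.8 and 38.1 CPM with the inhibitor and 18.3 and 20.4 CPM with KLA. In both groups only 1 of its 7 markers, Ccr3, had more than 3 counts. The alveolar macrophage sum was 285 and 264 CPM with the inhibitor and 344 and 350 CPM with KLA. The platelet and megakaryocyte sum was 65.3 and 72.6 CPM with the inhibitor, where 4 of the 7 markers had at most 3 counts, and 25.4 and 31.3 CPM with KLA, and the neutrophil sum was 21.3 and 22.8 CPM against 5.16 and 9.31 CPM. The part of these cells in Siglecf and Lrrc32 was not tested.

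Lat held 2.20 and 3.63 CPM with KLA and 3.10 and 2.85 CPM with the inhibitor, a difference of 0.01 ± 0.29 (SE, adjusted p = 0.982, edgeR), and the groups overlapped. The T cell marker sum was 26.5 and 25.1 CPM with KLA and 12.4 and 15.5 CPM with the inhibitor. Of its 10 markers, 4 had more than 3 counts with KLA and 3 with the inhibitor. Grk3 went from 54.1 and 55.6 to 39.3 and 37.9 CPM, a log2 fold change of -0.51 ± 0.088 (adjusted p = 7.83e-07), which was below the fold threshold. Rrad held 3.06 and 2.97 CPM with KLA and 3.17 and 3.08 CPM with the inhibitor (0.05 ± 0.29, adjusted p = 0.896). RGFP966_KLA replicate 2 was stamped 14 days after replicate 1, and 7 genes were called higher without it too.

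LysMCre was also present without the floxed NCoR alleles, in Pgc1b flox/flox cells, where Cre and the loss of Pgc1b that it brings cannot be told apart. Ppargc1b, the floxed gene, had 4.38 and 2.88 CPM without and 3.75 and 3.41 CPM with Cre under vehicle. These counts cover all exons of the gene and need not fall when only the floxed exons are lost, so they do not check the label. Lyz2, which carries the Cre, fell by 0.90 under vehicle. Of the 10 genes, 1 was called under vehicle, where only 0.164% of 12205 genes were called higher and 0.139% lower. That gene was Fn1, at 25.1 and 23.3 CPM without and 42.5 and 52.3 CPM with Cre, an increase of 0.97 ± 0.11 (SE, adjusted p = 7.2e-07, edgeR). Rhob went from 154 and 165 to 233 and 218 CPM, 0.50 ± 0.065 (adjusted p = 1.36e-05), which was below the fold threshold. Lrrc32 (0.73, adjusted p = 0.172) was called only without Pgc1b_flox_Cre_Veh replicate 2 (1.04). Siglecf was 5.76 and 5.10 CPM without and 6.13 and 5.88 CPM with Cre, a log2 difference of 0.15 ± 0.27 (SE). The fibroblast marker sum was 1.22 and 1.94 CPM without and 2.50 and 4.34 CPM with Cre.

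With KLA, 6 of the 10 were higher and 0 lower in the libraries labelled Cre by edgeR (6 in all by DESeq2, and 0 lower at an unadjusted p under 0.05), beside 13.2% and 12.9% of all genes. Rhob rose from 175 and 171 to 1181 and 1091 CPM, by 2.71 ± 0.068 (SE, adjusted p = 1.42e-26, edgeR). Tnfrsf26 rose from 22 and 7 counts to 74 and 65 counts, by 2.03 ± 0.30 (adjusted p = 8.66e-07), and Fn1 from 39.5 and 36.1 to 120 and 128 CPM, by 1.71 ± 0.11 (adjusted p = 6.99e-16). Lat rose from 5.00 and 4.90 to 13.8 and 12.4 CPM, by 1.40 ± 0.23 (adjusted p = 4.82e-06), and Lrrc32 from 19.3 and 15.8 to 40.3 and 41.2 CPM, by 1.21 ± 0.18 (adjusted p = 4.79e-07).

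Vsig8 rose from 4.48 and 4.65 to 9.80 and 7.53 CPM (0.93, adjusted p = 0.0056, edgeR), a call lost without Pgc1b_flox_Cre_KLA replicate 1 (0.75). Siglecf (-0.17 ± 0.29, SE), Il1rl2 (0.17 ± 0.35) and Rrad (-0.23 ± 0.42) were not called. Grk3 went from 27.6 and 26.6 to 35.8 and 42.6 CPM, 0.53 ± 0.15 (adjusted p = 0.00345), the opposite sign to its NKO value, below the fold threshold, and it was called higher without Pgc1b_flox_Cre_KLA replicate 1 (0.67). The column names of the Cre libraries with KLA give no time, whereas those of the libraries without Cre do. The T cell marker sum was 16.2 and 19.7 CPM without and 35.7 and 37.2 CPM with Cre under KLA, and its part in Lat was not tested. Of its 10 markers, 3 had more than 3 counts without and 4 with Cre.

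TBK1i called 1 of the 10 higher and 2 lower than DMSO with KLA, beside 15% and 18.3% of 12332 genes. Rhob rose from 133 and 144 to 743 and 776 CPM, by 2.46 ± 0.046 (SE) on the log2 scale. Lrrc32 fell from 149 and 148 counts (16.5 and 17.1 CPM) to 18 and 16 counts (1.80 CPM in both), by 3.21 ± 0.24 (adjusted p = 1.08e-40, edgeR). Lat fell from 43 and 28 counts to 19 and 7 counts, by 1.53 ± 0.36 (adjusted p = 6.66e-05), and its value was -2.33 without TBK1i_KLA replicate 1 and -1.07 without replicate 2, called in both. Tnfrsf26 (-0.74) was called lower only without DMSO_KLA replicate 1 (-1.12). Fn1 held 140 and 134 CPM with DMSO and 134 and 116 CPM with the inhibitor, and Siglecf 3.65 and 5.09 CPM and 3.61 and 2.93 CPM, and neither was called.

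Rhob was the only 1 of the 10 genes called higher in all 3 contrasts with an inhibitor or Cre under KLA. Lrrc32 rose with RGFP966 and with Cre and fell with TBK1i. Siglecf and Il1rl2 rose with RGFP966 and were not called in the other 2, and Grk3 and Rrad were not called in any of the 3.

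**Figure D3:**
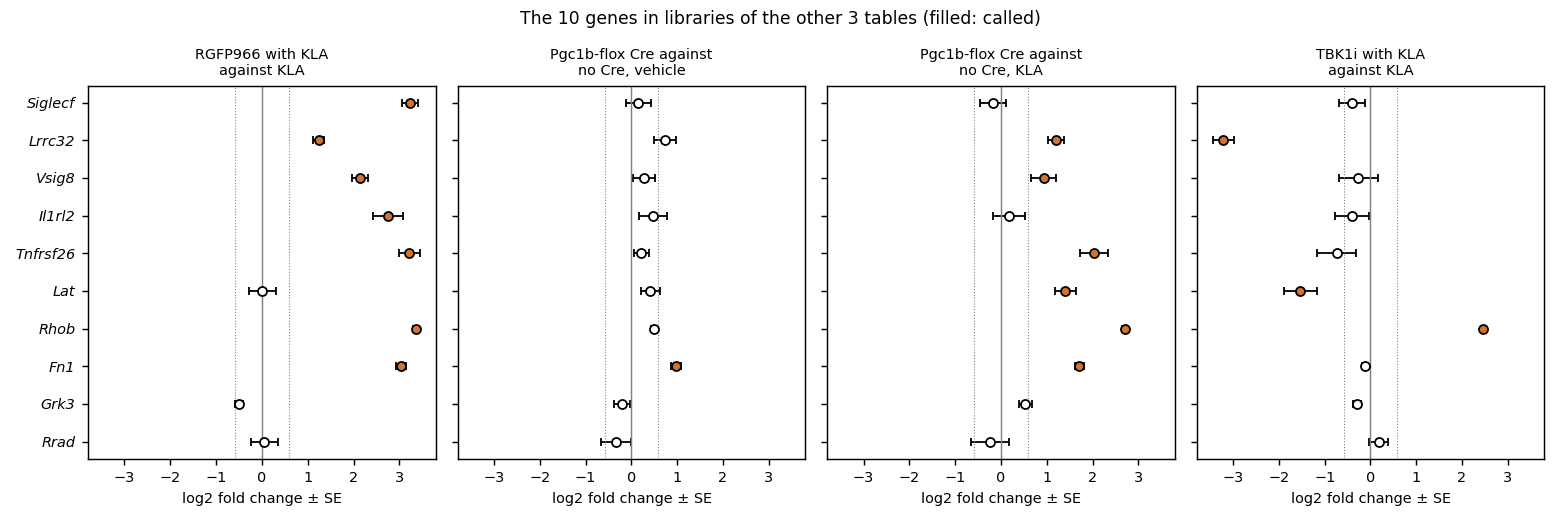
Log2 fold change with its SE for the 10 genes (rows) in 4 contrasts of the tables that took no part in the choice, filled where called, with dotted lines at a 1.5-fold change. With RGFP966, 7 genes lie to the right at 1.24 or more, whereas Lat and Rrad lie at 0.01 and 0.05.

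NKO libraries were then set beside the control libraries of all 4 tables, scaled together on 12468 genes. These levels also carry the differences between tables, sex among them. By Xist and Y-linked counts the Pgc1b controls were male, as NKO_KLA was, and the controls of the other tables and NKO_Veh were female. The NKO libraries and the WT libraries of their own table are also those by which the genes were chosen. A gap between these 2 sets thus follows from the choice under vehicle and KLA. The share of all genes lying beyond every control was not computed, so the counts below are a description. Under vehicle, both NKO libraries lay beyond all 8 control libraries for 6 of the 10 genes: Siglecf, Lrrc32, Fn1, Il1rl2, Rhob and Grk3. Siglecf was 1.88 to 7.17 CPM over the 8 controls and 14.98 to 15.70 CPM in NKO_Veh, and Fn1 was 9.22 to 132 CPM in controls and 339 to 350 CPM in NKO_Veh. Vsig8 overlapped, with 2.23 to 10.3 CPM in controls and 9.18 to 10.4 CPM in NKO_Veh, as did Tnfrsf26, with 11.6 to 25.6 CPM and 24.6 to 25.6 CPM. Lat and Rrad overlapped too.

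Under KLA, NKO lay beyond the 8 controls for 5 of the 10: Siglecf, Lrrc32, Vsig8, Fn1 and Tnfrsf26. Fn1 was 6.71 to 151 CPM in the controls and 186 to 191 CPM in NKO_KLA, so that its distance from the nearest control was much smaller than from its own table's WT_KLA (6.71 and 7.26 CPM). Rhob in NKO_KLA (74.2 to 77.8 CPM) lay inside the control range of 41.3 to 179 CPM. Siglecf was 2.83 to 9.10 CPM in controls and 9.79 to 11.6 CPM in NKO_KLA.

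**Figure D4:**
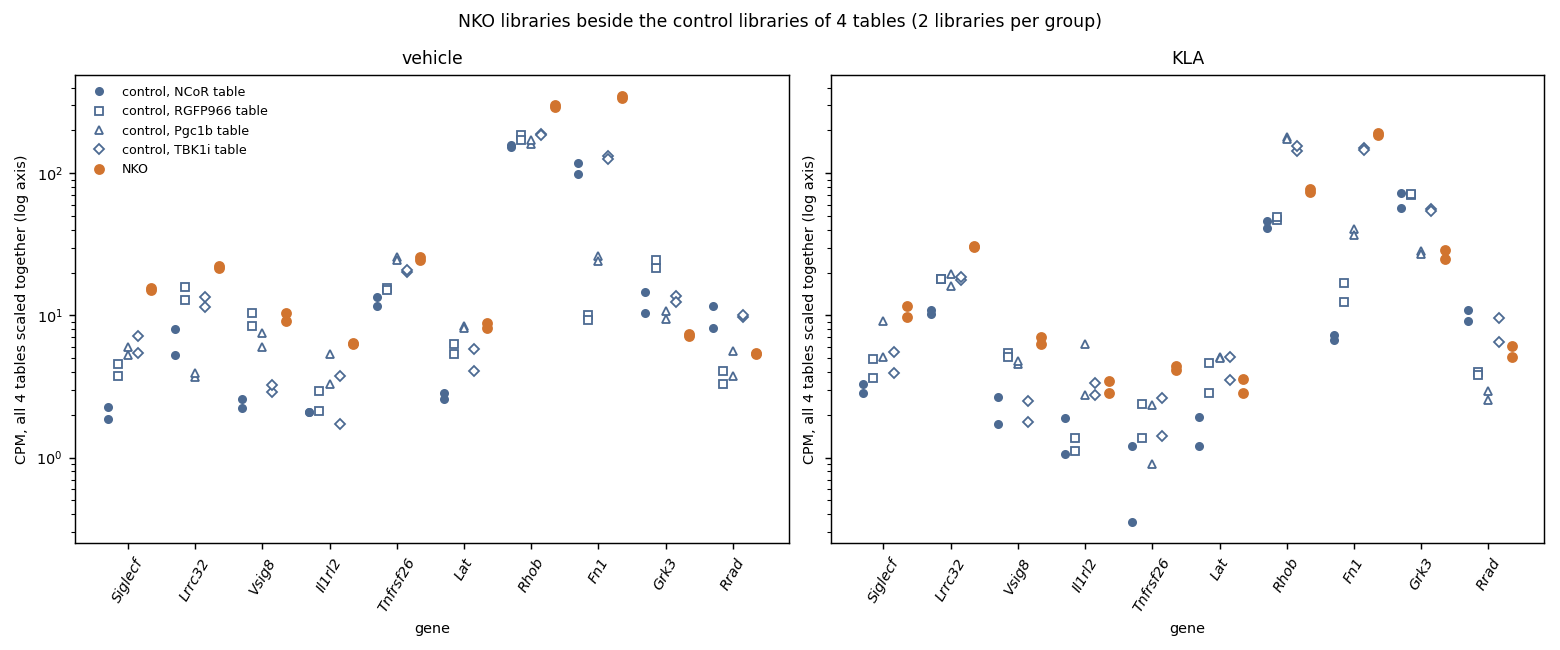
CPM on a log axis, all tables scaled together, of the 10 genes in 2 NKO libraries (orange) and in 8 control libraries (blue, shapes by table) under vehicle and KLA. NKO stands clear of all controls for Siglecf, Lrrc32 and Fn1 in both panels, and the controls of Fn1 spread from 9.22 to 132 CPM under vehicle and from 6.71 to 151 CPM under KLA.

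Genes related to the 10 were taken from lists by family or pathway, 92 in all, of which 83 were tested in the NCoR table. Of these, NKO against WT called 5 higher and 8 lower under vehicle, 5 and 6 with IL4, 5 and 4 with IFNb, 5 and 8 with PolyIC, 11 and 2 with RANKL, and 18 and 24 with KLA. Over all tested genes the shares called higher and lower were 2.4% and 3.8% under vehicle, 6.21% and 6.99% with RANKL, and 21% and 19% with KLA, with those of IL4, IFNb and PolyIC given above. In the 4 conditions of 1 stamp, 4 were called the same way throughout, beside 1.01% of all genes. Sdc1, a syndecan that binds matrix, was higher (115 CPM in WT_Veh and 244 CPM in NKO_Veh, log2 fold changes 0.74 to 1.44), but it was called lower with RANKL (167 CPM in WT and 87.4 CPM in NKO, -0.94) and with KLA (133 and 50.2 CPM, -1.41). Sdc4, another syndecan (-0.80 to -0.62), the integrin chain Itga9 (-1.44 to -0.98) and the growth factor Tgfb3 (-1.22 to -0.88) were lower in those 4 conditions. With RANKL none of these 3 was called, and with KLA Itga9 was called lower (-1.02) and the other two were not called. Itgb3, the beta chain of a fibronectin-binding integrin, was higher under vehicle (13.7 and 35.8 CPM, log2 fold change 1.39), whereas it was not called with IL4.

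Under vehicle, 2 of 8 Siglec receptors were lower in NKO, Siglec1 among them (291 CPM in WT and 154 CPM in NKO). Of 11 genes handling latent TGF-beta, Tgfb3 was lower. Of 13 fibronectin receptors and matrix partners 2 were higher and 2 lower. Of 10 tested LAT partners 1 was higher, Grap2, and 2 were lower, and of 7 tested genes of the IL1 receptor family and its IL36 ligands 0 were called by edgeR, with 0 at an unadjusted p under 0.05. Tnfrsf23, the neighbour of Tnfrsf26, was the 1 of 6 TNF receptors called, at 7.99 CPM in WT_Veh and 12.1 CPM in NKO_Veh. The 5 tested VSIG and VISTA genes, the 6 GPCR kinases and arrestins and the 1 tested RGK GTPase were not called under vehicle, where 2, 3 and 0 of them had an unadjusted p under 0.05 (edgeR). The members of these and the other lists that differed most under vehicle without being called were Itgb8 (1.25), Vsig4 (-1.21), Gem (0.45) and Grk5 (0.35), of which all but Grk5 were below 1 CPM in both genotypes, and Siglecg and Il1f9, which had no count in WT_Veh and were near 0 in NKO_Veh.

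With RGFP966, 16 of 74 tested relatives were higher and 9 lower, beside 15.8% and 9.54% of all genes. Tnfrsf23 rose there as well (1.69, adjusted p = 5.19e-09, edgeR), from 2.32 to 7.58 CPM, as 1 of 3 of the 6 TNF receptors called higher, and Itgb3 rose by 1.32. Sdc1 (0.55), Sdc4 (-0.36) and Itga9 (-0.57) were below the fold threshold. In the Pgc1b table under vehicle, 0 of 78 tested relatives were called with Cre by edgeR and 19 had an unadjusted p under 0.05, beside 20 genes called higher and 17 lower over the table.

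The genes with the most similar pattern over the 12 group means of the NCoR table were sought among 9787 genes of at least 5 CPM. The 12 points share libraries and depth and hold the genotype differences by which the genes were chosen, so the correlations are a description. The nearest gene was Ctsl for Lat (Pearson r = 0.95), Mmp9 for Vsig8 (0.91), Bcap31 for Siglecf (0.89, with Mmp9 next at 0.89) and Scd2 for Il1rl2 (0.90). Ctsl and Mmp9 were also among the 22 genes called in all 6 conditions, so a shared genotype difference is built into their r values. It was Nr2f6 for Tnfrsf26 (0.97), Lrrc27 for Rhob (0.95), Lamb2 for Fn1 (0.94) and Atp6v1b2 for Lrrc32 (0.91). For the lower genes it was Gpr132 for Grk3 (0.96) and Brip1 for Rrad (0.90).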

How the data were processed

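RNA-seq of mouse BMDMs was analysed from 4 count tables. Per the file headers and the study's methods, the authors aligned reads to mm10 with STAR and counted reads in exons per gene with HOMER, one transcript kept per gene, without normalization; no versions are given in the sources used here, and the deposited values are raw counts. Per the methods, reads were counted by strand.

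Libraries were grouped by their labels. Each table was fitted once over all its groups with edgeR 4.0.16 (R 4.3.3, TMM, filterByExpr, robust quasi-likelihood, 2-sided, Benjamini-Hochberg adjustment over all genes tested); a call needed an adjusted p below 0.05 and a fold above 1.5. Levels are TMM-scaled CPM computed here. Gene counts were 8323493 to 16783155 per library, and biological coefficients of variation 0.031 to 0.0665. With 2 libraries per group, leaving 1 out assumes that the lone library varies like the other groups. Alternatives were size factors, no filter, a mean of 5 CPM, DESeq2 1.42.0, the compared groups alone, the libraries of the vehicle stamp alone, adjusted p alone, a replicate block and each library left out.

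The 10 genes and all gene lists were chosen with earlier results of these data known. Named besides them were Ncor1, Lyz2 and Ppargc1b as label checks, the 3 genes nearest the threshold from below, the most similar genes by Pearson r, markers at or near 0, and of each list of relatives those called in all conditions of the vehicle stamp and the one that differed most under vehicle; Tnfrsf23 is also named as a neighbour with shared sequence, and Itgb3 and Tnfrsf23 were followed into the RGFP966 table after their values were seen. The counts over all relatives include 1 list that is not reported here on its own. On simulated counts for NKO_Veh against WT_Veh (12794 genes tested), 106 of 110 genes changed 2-fold and 90 of 90 changed 4-fold were recovered, with 3 unchanged genes called. The changed genes were drawn from those above a floor on the mean count, and all genes were given the same spread. These rates thus say little about values that rest on few counts. Same-numbered replicates did not deviate together (r from -0.0596 to 0.0591 in the NCoR table). Figures were drawn with matplotlib 3.10.9 in Python 3.11.15.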

Additional observations from a re-analysis of the deposited data

Results flagged for a closer look

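Some responses had opposite directions in every library of 2 groups; these differences were not tested, and the NKO and WT values share the libraries by which the genes were chosen. With RANKL, the log2 change against vehicle was 0.239 in WT and -1.46 in NKO for Siglecf, 0.939 and -0.091 for Lat, and 0.347 and -0.753 for Lrrc32. With KLA, Siglecf was 0.488 in WT and -0.541 in NKO, and with IFNb, Rhob was 0.0926 in WT and -0.0332 in NKO, neither of them called. In the NCoR table the RANKL and KLA libraries differ from vehicle in date stamp, RANKL also in time and possibly culture, and NKO_KLA also in sex. These cannot be told apart from the ligand. The KLA response of Fn1 in control cells was -4.02 for WT_KLA of the NCoR table, 0.552 for KLA beside RGFP966, 0.648 for Pgc1b flox/flox without Cre and 0.213 for DMSO_KLA. That of Rhob was -1.9, -1.92, 0.117 and -0.308 in the same order.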

How the results depend on the processing

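Of 18 counts of called genes recomputed under every alternative, 213 values stayed within 1.5 times the count reported and 11 did not. IFNb in WT gave 0 calls, and 0 to 1 when 1 library was left out. IFNb in NKO gave 2, but 1 with a filter on a mean of 5 CPM and 1 to 2 when 1 library was left out. Adjusted p alone, without the fold threshold, gave 2 in place of 1 for Cre under vehicle, 5 in place of 2 for DMSO_KLA against DMSO_Veh and 5 in place of 3 for TBK1i; leaving out 1 library gave 1 to 2 and 2 to 4 for the first 2 of these. The cause was not tested. All 10 genes were called in all 6 NKO contrasts with size factors or no filter, 9 with DESeq2 or with the compared groups alone, 8 with a filter on a mean of 5 CPM, and 7 to 10 when 1 library was left out (7 without NKO_RANKL replicate 2). With the replicate number as a block, the RGFP966 count stayed at 7 and the all-condition count at 10, and none of the 18 counts changed; the numbers do not pair the libraries. Of the single-gene values under an alternative, 2486 kept their side of the thresholds, 49 lost the call, 43 gained it and no called value reversed; 26 of the 230 values changed sign in at least 1 setting while never called. Counts limit the precision for Tnfrsf26, Il1rl2, Lat and Vsig8, whose lowest WT libraries held 2, 4, 7 and 10 counts.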
